A study of Homo sapiens with 4 samples.

Results

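Dense chains are stretches of the genome in which HuR peaks follow each other closely over many kilobases. Peaks of the 5 Gy and the 0 Gy list that lay within 10 kb of each other on a chromosome were joined into chains, and a chain was counted as dense when it held at least 20 peaks of the 0 Gy list. There were 188 dense chains among 15970 chains, and they held 9044 of the 84146 peaks of both lists. Of the 5 Gy list, 3807 of 36216 peaks (10.5%) lay in them, and of the 0 Gy list, 5237 of 47930 (10.9%). The chains were chosen by their number of 0 Gy peaks, so a lower number at 5 Gy is partly built into the choice. All differences between the doses are therefore given as descriptions, with no test.

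The lists come from WS1, an established line of human skin fibroblasts, after 5 Gy of X-rays or without irradiation (0 Gy). At each dose 1 library was made from RNA recovered with HuR and 1 from RNA recovered with IgG, the control antibody, which makes 4 libraries with 1 per group. Each peak list compares HuR with IgG at that dose. Neither the read depth nor the time between irradiation and harvest is known here, and no difference below has a replicate check. Fewer cells, less RNA of a locus per cell and less HuR on that RNA cannot be told apart in such lists.

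HuR, the product of ELAVL1, is an RNA-binding protein that recognises U-rich and AU-rich stretches in introns and in 3' untranslated regions. It is mostly nuclear, moves to the cytoplasm under many kinds of stress, and is best known for stabilising its target mRNAs. Introns of precursor mRNAs can run over many kilobases and hold many such stretches, so a single transcript can offer HuR a long row of possible sites.

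Dense chains were found on 22 chromosomes, with 22 on chromosome 1, 18 on chromosome 12 and 17 on chromosome 17. The share of a chromosome's 0 Gy peaks that lay in them differed widely, with 19.7% on chromosome 16 and 19% on chromosome 17, against 2.51% on chromosome 22 and none of the 375 on chromosome 21. The chains spanned 27.3 to 149.9 kb, with a median of 61.7 kb, and 12.5 Mb in all. Within them the peaks were separate islands. Peaks at 5 Gy covered a median of 27.8% of a chain's span (range 5.05% to 76.1%), and peaks at 0 Gy covered a median of 32.0% (range 12.2% to 80.8%). There was a median of 3.05 peaks per 10 kb at 5 Gy and 4.22 at 0 Gy. Neighbouring peaks of the same list in a chain were separated by a median gap of 995 bp in the 5 Gy list and 687 bp in the 0 Gy list. Peaks of dense chains scored about as high as others in the middle of the range, and fewer of them reached the top. The median of the authors' peak score in dense chains was 140.9 at 5 Gy and 135.5 at 0 Gy, against 143.8 at 5 Gy and 136.8 at 0 Gy in all other chains. Scores of 3100 or more, at which most of the strongest peaks of the lists are tied, were reached by 2.73% of 5 Gy peaks and 2.96% of 0 Gy peaks in dense chains, against 6.07% and 5.65% in all other chains. Peaks of dense chains were somewhat longer, with a median of 606 bp at 5 Gy and 491 bp at 0 Gy, against 552 bp at 5 Gy and 443 bp at 0 Gy elsewhere.

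At the threshold, 23 chains held exactly 20 peaks of the 0 Gy list and 24 chains held 19. The chains with 20 had 8 to 24 peaks at 5 Gy (median 15), and those with 19 had 7 to 20 (median 15). The ratio of covered length, 5 Gy over 0 Gy, had a median of 0.94 in the chains with 20 and 0.88 in those with 19. The values on both sides of the threshold overlapped.

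Every dense chain kept peaks after irradiation, and most kept fewer of them. A chain had a median of 19 peaks at 5 Gy (range 8 to 49) and 25 at 0 Gy (range 20 to 55). Of the 188 chains, 174 had fewer peaks at 5 Gy, 7 had the same number and 7 had more. Among all 10958 chains with peaks at both doses, 41.9% had fewer peaks at 5 Gy and 14.3% had more, and small chains often tie, so nothing is read from the higher share here. Summed over the dense chains, the 5 Gy peaks amounted to 72.7% of the 0 Gy peaks (95% Wilson interval 69.7 to 75.8, which covers counting error only and treats peaks as independent). All other chains held 32409 peaks at 5 Gy and 42693 at 0 Gy, so a lower number at 5 Gy is not particular to dense chains. Covered length of the dense chains fell less, to 3.64 Mb at 5 Gy, against 4.10 Mb at 0 Gy, or 89.0%. Classed by 0 Gy peaks, chains of 1, 2 to 4, 5 to 9 and 10 to 19 gave 88.1%, 88.3%, 90.2% and 90.1%. The covered length was lower at 5 Gy in 140 of the 188 chains, against 5797 of the 10958 chains with peaks at both doses (52.9%). Dense chains were chosen by their 0 Gy peaks and small chains rest on few peaks, so nothing is read from this contrast either. In 39 chains there were fewer peaks at 5 Gy but more covered length.

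Counted by overlap of single peaks, the lower peak number was mostly a matter of peaks with no counterpart. The size of the deficit depends on how finely peaks are divided. With peaks of the same list within 1 kb joined, the 5 Gy number was 88.5% of that at 0 Gy. In dense chains 789 peaks of the 5 Gy list had no overlap in the 0 Gy list, whereas 1948 peaks of the 0 Gy list had none in the 5 Gy list. Peaks that did overlap numbered 3018 at 5 Gy and 3289 at 0 Gy, a difference of -271 in a total of -1430. By length, 2.69 Mb was covered in both lists, 0.958 Mb in the 5 Gy list alone and 1.41 Mb in the 0 Gy list alone. The shared length made up 73.7% of the 5 Gy coverage in dense chains and 65.6% of the 0 Gy coverage, against 73.6% and 67.7% in all other chains.

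The share of peaks at 5 Gy differed little with size when chains were classed by the peaks of a single list. Classed by their 0 Gy peaks, chains with 1, 2 to 4, 5 to 9, 10 to 19 and at least 20 peaks held 72.4%, 69.5%, 72.5%, 72.6% and 72.7% as many peaks at 5 Gy as at 0 Gy. The dense chains lay at the level of the smaller classes. Classed by their 5 Gy peaks, the same 5 sizes gave 82.9%, 85.1%, 83.2%, 82.5% and 83.1%. The 92 chains with at least 20 peaks of the 5 Gy list, of which 84 are also dense by 0 Gy peaks, had a covered length at 5 Gy of 96.6% of that at 0 Gy. With peaks of both lists counted together, the 3993 chains of 1 peak gave 53.9%, those of 2 to 9, 10 to 19 and 20 to 39 peaks gave 76.4%, 76.8% and 77.8%, and the 122 chains with 40 or more gave 76.6%. By this count only the chains of 1 peak stood apart.

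**Figure D1:**
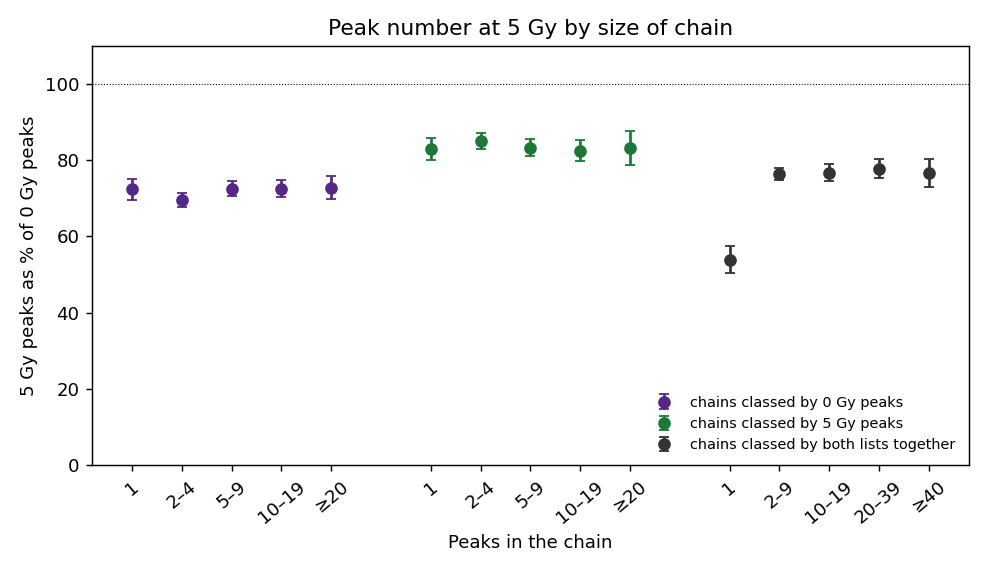
Number of 5 Gy peaks as a percentage of 0 Gy peaks (vertical axis) for chains of increasing size (horizontal axis), with chains classed by 0 Gy peaks, by 5 Gy peaks or by both; points are sums over all chains of a class and bars are 95% Wilson intervals of counting error. Dense chains (at least 20 peaks at 0 Gy) sit at 72.7%, beside 72.6% for chains of 10 to 19 peaks, and the level shifts to 83.1% when at least 20 peaks at 5 Gy are required; chains of 1 peak in both lists together are at 53.9%.

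The share of unmatched peaks was lower in dense chains than in all others, in part by construction, since a chain of 1 peak cannot hold a match. Peaks also lie close together in dense chains and 1 bp counts as a match, so a match by position alone is likelier there. How much of the difference this makes was not tested. No overlap was found for 20.7% of 5 Gy peaks in dense chains (95% interval 19.5 to 22.04), against 27.8% in all other chains and 27.0% of the whole 5 Gy list. For 0 Gy peaks the share was 37.2% in dense chains (35.9 to 38.5), against 42.4% in all other chains and 41.9% of the whole list. Without the chains of 1 peak, a comparison chosen after seeing the data, 24.5% of 5 Gy peaks (24.03 to 24.98) and 38.7% of 0 Gy peaks (38.2 to 39.2) in the other chains were unmatched, so that at 0 Gy the intervals overlapped. In chains with 10 to 19 peaks of the 0 Gy list 21.0% of the 5 Gy peaks and 38.5% of the 0 Gy peaks were unmatched, close to those of the dense chains. Unmatched peaks were weak and short. Their median score was 81.3 at 5 Gy and 87.5 at 0 Gy, with median lengths of 457 bp (5 Gy) and 386 bp (0 Gy). Matched peaks of dense chains that paired one to one had median scores of 159.6 at 5 Gy and 214.3 at 0 Gy.

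Within each score class under 500 the share was lower in dense chains as well, with the same limits of construction. Among 5 Gy peaks with scores from 70 to under 100, 37.4% were unmatched in dense chains (34.1 to 40.8), against 51.0% in all other chains (49.9 to 52.2). Among 0 Gy peaks of the same class the share was 62.6% in dense chains (59.8 to 65.3), against 70.4% in all other chains (69.5 to 71.3). At scores from 250 to under 500 it was 2.85% of 5 Gy peaks in dense chains, against 5.63% elsewhere, and 11.4% of 0 Gy peaks, against 14.7% elsewhere. At scores of at least 1000, none of the 343 peaks at 5 Gy in dense chains was unmatched (upper bound of the 95% interval 1.11%) and 2 of the 461 at 0 Gy were. Without the chains of 1 peak, the share elsewhere at scores from 70 to under 100 was 46.7% (5 Gy peaks) and 67.0% (0 Gy peaks). At scores from 250 to under 500 it was 4.75% (5 Gy peaks) and 13.1% (0 Gy peaks).

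**Figure D2:**
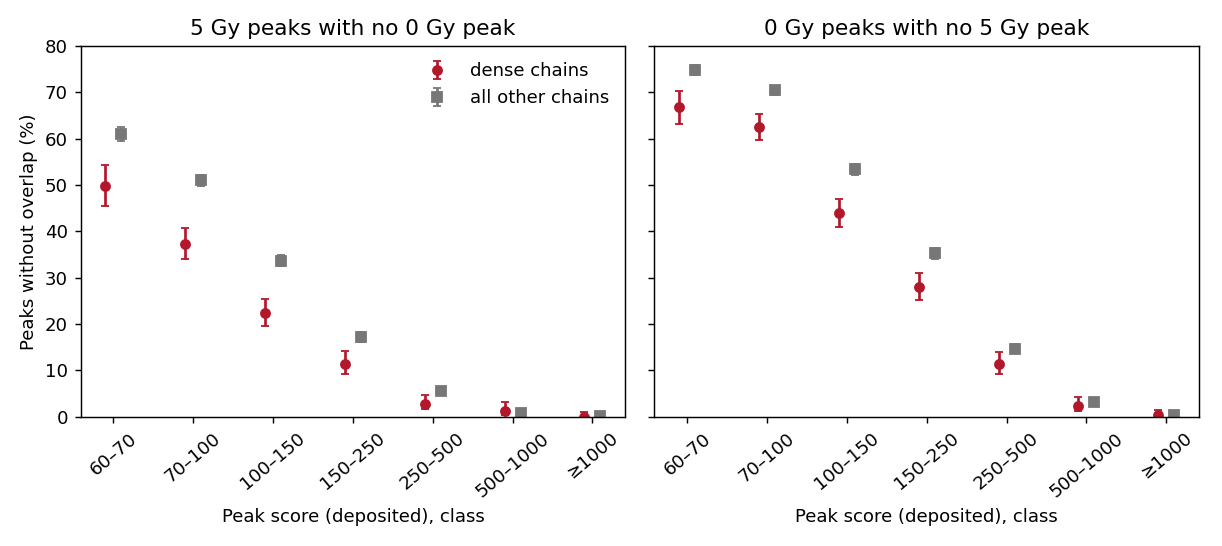
Percentage of 5 Gy peaks (left) and 0 Gy peaks (right) with no overlapping peak in the other list, by class of the deposited peak score, for dense chains (circles) and all other chains (squares); bars are 95% Wilson intervals. In both lists the share falls with score, and dense chains lie below the rest in the 5 classes under 500.

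Some peaks overlapped, by at least 1 bp, just 1 peak of the other list, and that peak also overlapped a neighbour. The share of such peaks was higher in dense chains than in all others. In chains with 10 to 19 peaks of the 0 Gy list it lay in between, at 11.3% of 5 Gy peaks and 15.4% of 0 Gy peaks. At 5 Gy, 13.9% of the peaks in dense chains shared a 0 Gy peak in this way, against 8.61% elsewhere. At 0 Gy, 19% of the peaks in dense chains shared a 5 Gy peak, against 11.3% in all other chains. In the 39 chains with fewer peaks but more covered length, 27.7% of the 0 Gy peaks shared a 5 Gy peak in this way. In the 135 chains with fewer peaks and less covered length, 16.6% did. Both sets were sorted by peak number and covered length, which such sharing itself changes, so nothing is read from this contrast. Joining peaks of the same list that lay within 1 kb of each other brought the peak number at 5 Gy in the dense chains to 88.5% of that at 0 Gy, the same order as the ratio of covered length.

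Unmatched peaks were found all along the chains. Those of the 0 Gy list made up their smallest share at the ends, with no even rise towards the middle. In the outermost 5% of the span on either side, 19.8% of 5 Gy peaks were unmatched, and from 45% to 50%, the middle, 21.9%. For 0 Gy peaks the shares were 32.6% at the ends (29.1 to 36.4) and 41.3% in the middle (37.2 to 45.6), the highest of all parts. In between, the share went up and down, with 33.5% from 10% to 15% of the span and 41.1% from 20% to 25%. Next to the middle, from 40% to 45%, it was 36.3% (32.3 to 40.4), an interval that overlaps that of the ends. Peaks at the ends were stronger, with median scores of 199.1 at 5 Gy and 173.6 at 0 Gy, against 130.7 at 5 Gy and 131.5 at 0 Gy in the middle. The longest peak of a chain lay within 5% of the span from an end in 53 of 188 chains at 5 Gy (28.2%) and 55 at 0 Gy (29.3%), whereas 12.6% of the chains' 5 Gy peaks and 11.8% of their 0 Gy peaks lay there. Since the lists hold no strand, an end of a chain cannot be assigned to the start or the end of a transcript. Of the 376 chain ends, 235 were formed by a peak that overlapped the other list, 45 by a peak found only at 5 Gy and 96 by a peak found only at 0 Gy.

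The 188 chains differed from each other, and the most extreme of them lay far from the median. The ratio of covered length, 5 Gy over 0 Gy, ran from 0.25 to 1.74 with a median of 0.89 and quartiles of 0.77 and 1.001. A ratio of at most 0.667 was found in 21 chains (11.2%), against 17.7% of all chains with peaks at both doses. A ratio of at least 1.5 was found in 2 chains (1.06%), against 11.6% of all such chains. Both shares are below those of all chains, most of which are small and rest on few peaks. The 21 chains with the lowest ratios had 205.7 kb covered at 5 Gy and 380.3 kb at 0 Gy, and 59.0% of their 0 Gy peaks were unmatched. Scores in these chains are not independent of the choice, since longer peaks also had higher scores. In one-to-one pairs with both scores under 3100, the 5 Gy score was the lower in 114 of 142 pairs in these chains (80.3%) and in 1164 of 1752 pairs in all dense chains (66.4%). In all other chains it was the lower in 63.6% of pairs. The scale of the score and the depth of the libraries are unknown, so nothing is read from the direction within a pair.

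**Figure D3:**
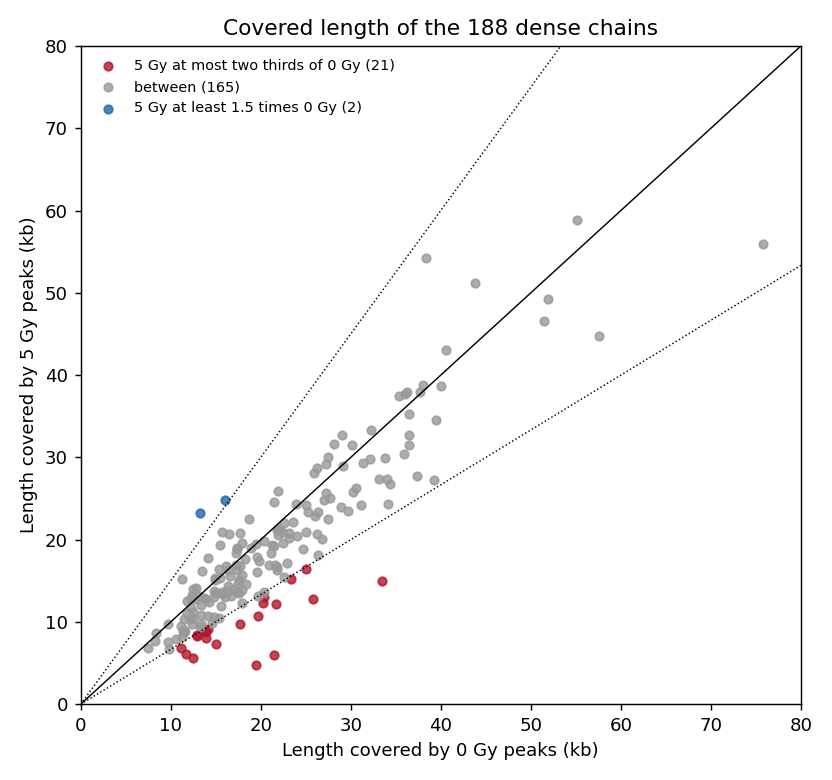
Length covered by 5 Gy peaks (vertical, kb) against length covered by 0 Gy peaks (horizontal, kb) in each of the 188 dense chains; the solid line marks equal length and the dotted lines ratios of 0.667 and 1.5. Most chains lie just under the solid line, 21 lie at or below the lower dotted line and 2 at or above the upper one.

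The lowest ratio belonged to a chain on chromosome 1 (164528312 to 164623026, 94.7 kb). Its 8 peaks at 5 Gy covered 4.8 kb, and its 38 peaks at 0 Gy covered 19.4 kb. What remained lay at one end. From position 164541164 to the end of the chain, 33 peaks of the 0 Gy list in a row had no 5 Gy overlap, and a single 5 Gy peak of 420 bp (score 81.31) lay between them. These 33 peaks covered 14.5 kb, with scores from 60.35 to 387.26 and a median of 84.64, and 4 of them scored at least 150. At the retained end the leading peak was 1487 bp long with a score of 944.35 at 5 Gy, and 2527 bp with a score of 1476.27 at 0 Gy. All 3 one-to-one pairs of the chain scored lower at 5 Gy.

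On chromosome 18 (57291946 to 57365403, 73.5 kb) 10 peaks at 5 Gy covered 6.0 kb, against 21.4 kb for 29 peaks at 0 Gy. Strong peaks were shorter and scored lower at 5 Gy here too. The highest score in the chain was 143.27 at 5 Gy and 1766.28 at 0 Gy, where that peak was 2523 bp long. The 5 Gy list had peaks of 534 and 540 bp in its place (scores 118.04 and 105.98). Next to it, a 5 Gy peak of 485 bp (score 141.92) stood against a 0 Gy peak of 2660 bp (score 1045.81). From 50 kb into the chain, 9 weak 0 Gy peaks had no counterpart, before a broad weak peak at the far end that was found at both doses (1278 bp with a score of 67.02 at 5 Gy, 1632 bp with a score of 77.17 at 0 Gy).

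On chromosome 20 (30946796 to 31035406, 88.6 kb), 21 peaks covered 15.03 kb at 5 Gy and 46 peaks covered 33.4 kb at 0 Gy. Here the loss was scattered, with 33 of the 46 peaks at 0 Gy unmatched and never more than 8 in a row. The highest score was 411.19 at 5 Gy and 840.97 at 0 Gy. The chain on chromosome 12 (14518605 to 14567860) held 10 peaks and 5.7 kb at 5 Gy, against 23 peaks and 12.5 kb at 0 Gy, and all 6 of its one-to-one pairs scored lower at 5 Gy. Its highest score was nevertheless higher at 5 Gy, at 404.22 in a peak over several 0 Gy peaks, against 390.58 at 0 Gy. On chromosome 2 (46926364 to 46956534), 14 peaks covered 7.3 kb at 5 Gy and 22 covered 15.1 kb at 0 Gy, and all 8 of its pairs scored lower at 5 Gy. On chromosome 15 (37352359 to 37402668), 8 peaks covered 12.8 kb at 5 Gy and 20 peaks covered 25.8 kb at 0 Gy. That chain kept its strongest peak, which was 4783 bp long with a score of 3084.16 at 5 Gy and 4094 bp with a score of 3100 at 0 Gy. Before its first 5 Gy peak, 24.98 kb into the chain, the 0 Gy list had 7 peaks, among them one of 2451 bp with a score of 718.93.

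**Figure D4:**
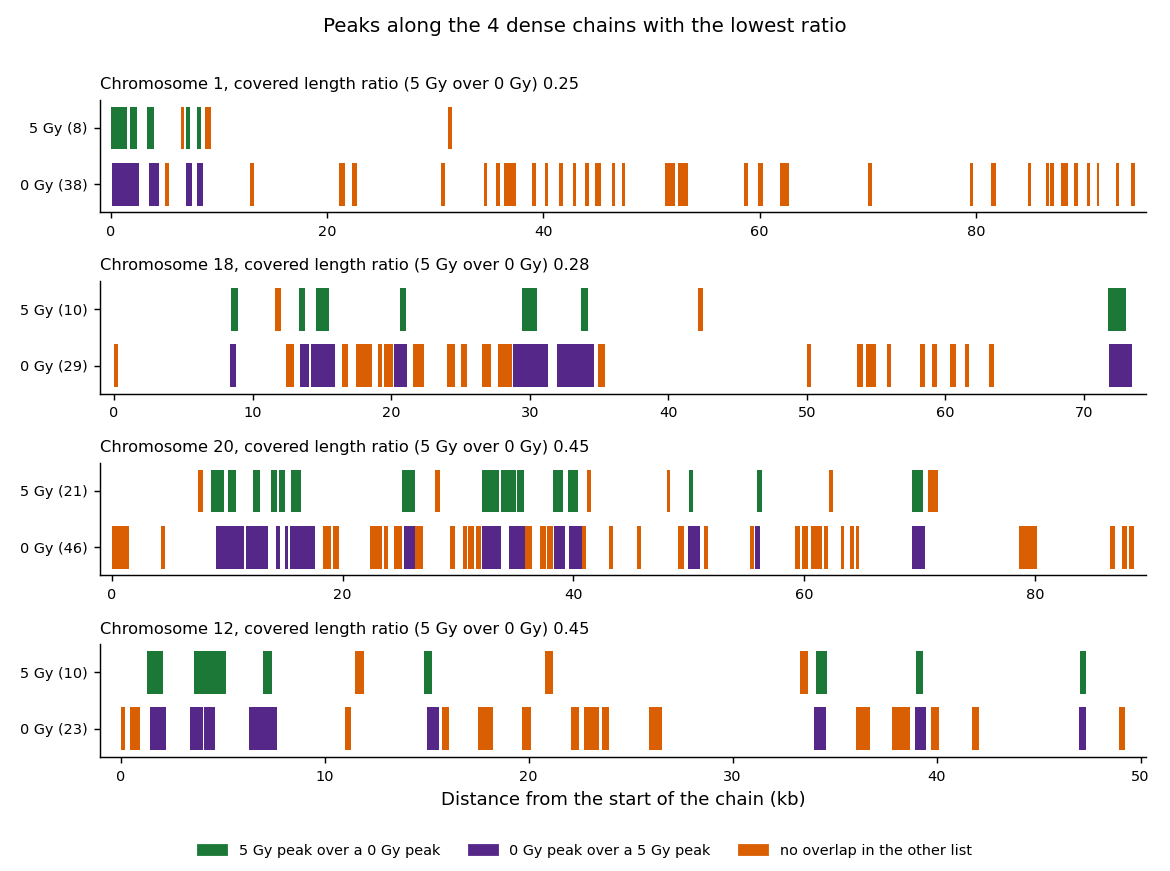
Peaks of the 5 Gy list (upper row) and the 0 Gy list (lower row) along the 4 dense chains with the lowest ratio of covered length, with distance from the start of the chain in kb on the horizontal axis and the number of peaks in brackets. Orange peaks overlap no peak of the other list. On chromosome 1 the 5 Gy peaks are gathered in the first 10 kb apart from 1, whereas on chromosome 20 matched and unmatched 0 Gy peaks alternate.

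Long rows of unmatched 0 Gy peaks were rare. The longest row per chain had a median of 4 peaks, and 4 chains had a row of 10 or more, the chain on chromosome 18 above among them. After the row of 33 on chromosome 1 came rows of 13 and 11 on chromosome 17. The row of 13 (75157502 to 75187907) covered 5.2 kb, with scores up to 164.9, in a chain from 75118765 to 75205323 where 22 peaks covered 13.7 kb at 5 Gy and 34 covered 20.3 kb at 0 Gy. The row of 11 (59908808 to 59931938) covered 4.1 kb with scores up to 135.06. In its chain, from 59901540 to 59973685, 14 peaks covered 9.5 kb at 5 Gy and 20 covered 11.2 kb at 0 Gy. Both rows consisted of weak peaks, with median scores of 74.47 for the row of 13 and 80.7 for the row of 11. A single 5 Gy peak lay between the peaks of each row, of 388 bp (score 86.07) in the row of 13 and 377 bp (score 62.59) in the row of 11. In the chain with the row of 11, the strongest peak was 2342 bp long with a score of 1257.16 at 5 Gy and 2319 bp with a score of 1571.6 at 0 Gy.

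The highest ratio, 1.74, belonged to a chain on chromosome 2 from 29117486 to 29171303 (53.8 kb), with 22 peaks at each dose that covered 23.2 kb at 5 Gy and 13.3 kb at 0 Gy. Much of its extra length lay in longer peaks at the same places. A 5 Gy peak of 7335 bp (score 1942.48) lay over 5 peaks of the 0 Gy list of 548 to 906 bp, whose scores ran from 129.91 to 518.9. Of its 22 peaks, 6 at 5 Gy and 2 at 0 Gy were unmatched. The leading peak scored 2861.51 at 5 Gy and 2034.73 at 0 Gy. At the far end of the chain, peaks of 1936 bp at 5 Gy and 1994 bp at 0 Gy were both tied at 3100.

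On chromosome 3 (194123345 to 194207763), 34 peaks covered 24.8 kb at 5 Gy and 29 peaks covered 16.0 kb at 0 Gy, a ratio of 1.55. New peaks made part of the gain, since 12 of the 34 had no 0 Gy overlap. On chromosome 17 (62538264 to 62659165), 49 peaks covered 54.2 kb at 5 Gy and 51 covered 38.3 kb at 0 Gy, a ratio of 1.41, with changes in both directions. Among its 5 Gy peaks 23 were unmatched, including one of 2589 bp with a score of 587.84, the highest of any unmatched 5 Gy peak in dense chains. At its far end 9 peaks of the 0 Gy list in a row were unmatched, 2 of them with scores of 909.93 (1775 bp) and 812.31 (2339 bp). Coverage was thus higher at 5 Gy over the whole chain and lower over its far end.

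The next ratios were 1.36, 1.33 and 1.26. On chromosome 12 (112473511 to 112547231), 22 peaks covered 15.2 kb at 5 Gy and 20 covered 11.2 kb at 0 Gy. At its far end a 5 Gy peak of 4474 bp (score 1806.13) lay over 5 peaks of the 0 Gy list, the strongest of which scored 542.36, but 6.16 kb was covered there at 5 Gy and 5.77 kb at 0 Gy. Most of the gain lay before it, where 9.05 kb was covered at 5 Gy and 5.44 kb at 0 Gy. In that stretch 15 of the 20 peaks of the 5 Gy list were unmatched, and 8 of the 13 of the 0 Gy list. On chromosome 4 (146018377 to 146099249), 26 peaks covered 20.9 kb at 5 Gy and 21 covered 15.7 kb at 0 Gy. On chromosome 8 (12940840 to 12990846), 19 peaks covered 17.8 kb at 5 Gy and 21 covered 14.1 kb at 0 Gy, so that chain gained length with fewer peaks.

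**Figure D5:**
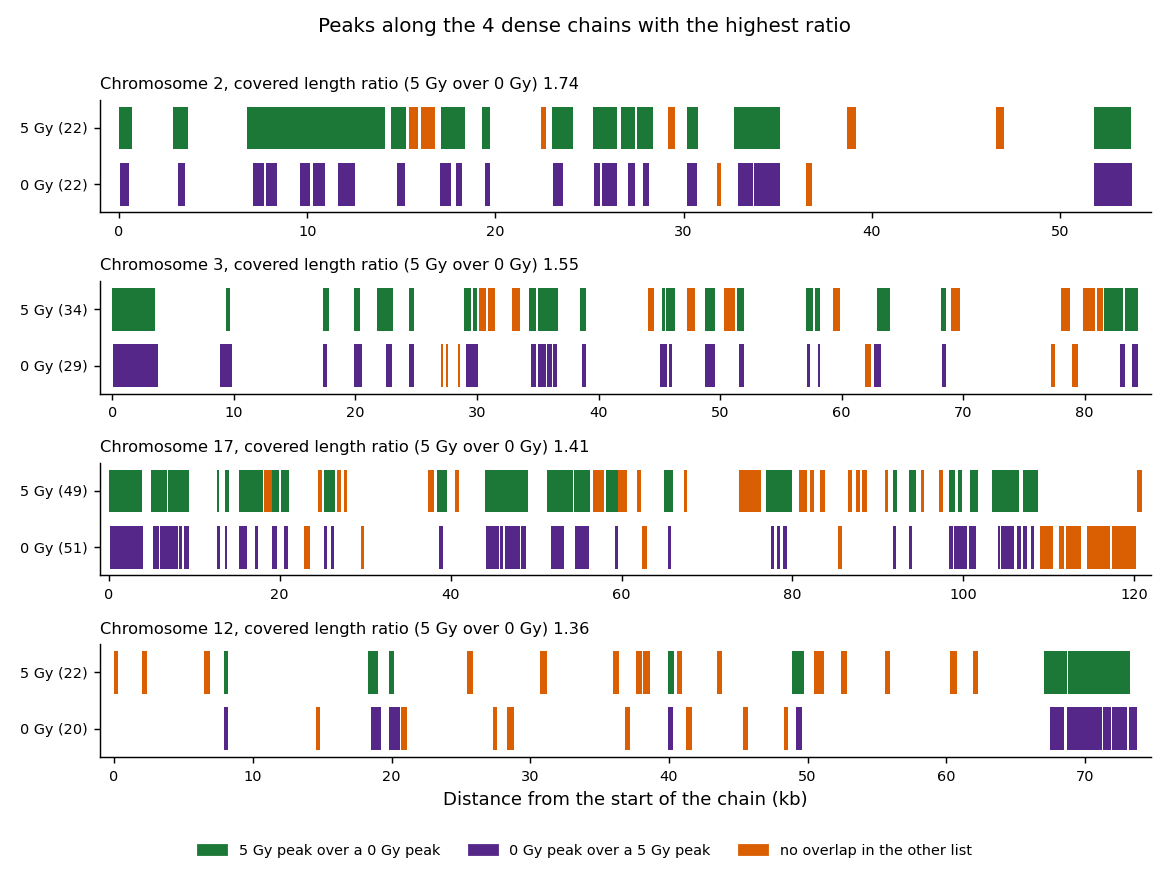
Peaks of the 5 Gy list (upper row) and the 0 Gy list (lower row) along the 4 dense chains with the highest ratio of covered length, drawn against distance from the start of the chain in kb, with orange for peaks that overlap no peak of the other list. The 7335 bp peak of the chain on chromosome 2 spans 5 separate 0 Gy peaks, and the far end of the chain on chromosome 17 holds 0 Gy peaks only, apart from 1 short 5 Gy peak.

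In some dense chains several 0 Gy peaks lay under a single 5 Gy peak. On chromosome 12 (120648052 to 120703616), a 5 Gy peak of 7287 bp (score 1730.96) covered 7 peaks of the 0 Gy list, and 16 peaks in all covered 20.8 kb at 5 Gy, against 17.7 kb for 22 peaks at 0 Gy. On chromosome 1 (78408090 to 78452110), a 5 Gy peak of 10452 bp (score 1455.61) overlapped 6. The first of these, of 3771 bp and tied at 3100, reached it only with its end and itself overlapped 5 separate 5 Gy peaks. In this chain 16 peaks covered 29.0 kb at 5 Gy, against 29.1 kb for 23 peaks at 0 Gy. On chromosome 7 (5526085 to 5570052) 11 peaks covered 22.5 kb at 5 Gy and 22 covered 18.7 kb at 0 Gy, with 6 peaks of the 0 Gy list under 1 of 5637 bp. In that chain 1 peak in each list was unmatched. Peak number and coverage thus gave opposite directions at this locus. By length, 5.582 kb was covered in the 5 Gy list alone and 1.794 kb in the 0 Gy list alone. The longest 5 Gy peak was a weak one of 6445 bp (score 63.86). That length exceeds the difference in coverage between the doses, but 5070 bp of it overlapped 0 Gy peaks.

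The chain with the most 0 Gy peaks, on chromosome 5 from 14143346 to 14280811, had 38 peaks at 5 Gy and 55 at 0 Gy. It also held the strongest unmatched peak of all dense chains, a 0 Gy peak of 6873 bp with a score of 1511.43 at its very start. It ended 0.2 kb before the first 5 Gy peak. Further on, a 0 Gy peak of 9456 bp tied at 3100 lay against 7 separate 5 Gy peaks, the reverse of the cases above. In the chain, 27 of the 55 peaks at 0 Gy and 6 of the 38 at 5 Gy were unmatched.

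Of the next 9 chains by number of 0 Gy peaks, 6 had less covered length at 5 Gy and 3 had more, among them the chain on chromosome 17 with the ratio of 1.41. On chromosome X (73420075 to 73512441), 32 peaks covered 27.2 kb at 5 Gy and 53 covered 39.3 kb at 0 Gy. On chromosome 8 (118912535 to 119005987), 28 peaks covered 24.4 kb at 5 Gy and 47 covered 34.1 kb at 0 Gy. The ratios of these chains were 0.69 and 0.71, the lowest of the 9. On chromosome 2 (20448410 to 20550477), 35 peaks covered 27.3 kb at 5 Gy and 54 covered 34.1 kb at 0 Gy. On chromosome 16 (22436595 to 22553233), 34 peaks covered 25.8 kb at 5 Gy and 54 covered 30.2 kb at 0 Gy. The chain on chromosome 11 (85678304 to 85780167) lay close to these in ratio, with 35 peaks and 34.5 kb at 5 Gy and 50 peaks and 39.5 kb at 0 Gy. In the chain with the longest span, on chromosome 4 (1813004 to 1962921, 149.9 kb), 37 peaks covered 38.7 kb at 5 Gy and 52 covered 39.97 kb at 0 Gy, so the length was nearly level. On chromosome 9 (33916995 to 34047835), 40 peaks covered 33.3 kb at 5 Gy and 49 covered 32.3 kb at 0 Gy. A further chain on chromosome 16 (21418212 to 21531823) had 43 peaks and 37.5 kb at 5 Gy, against 48 peaks and 35.3 kb at 0 Gy. All 9 had fewer peaks at 5 Gy, whichever way the covered length went. The chain with the shortest span, on chromosome 1 (23643537 to 23670797, 27.3 kb), held 11 peaks and 8.9 kb at 5 Gy, against 22 peaks and 13.8 kb at 0 Gy.

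Strong peaks without any counterpart were few in dense chains. Among peaks with scores of 500 or more, 4 of 655 at 5 Gy (0.611%) and 11 of 864 at 0 Gy (1.27%) were unmatched, near the 0.391% at 5 Gy and 1.47% at 0 Gy in all other chains. At 5 Gy, a peak of 399 bp on chromosome 2 (29164103 to 29164501, score 513.27) lay 4.81 kb from the nearest 0 Gy peak. The second strongest at 0 Gy, after the one on chromosome 5, was 4844 bp long with a score of 1364.67 on chromosome 1 (224572745 to 224577588), at 1.14 kb from any 5 Gy peak. On chromosome 8, a 0 Gy peak of 1485 bp with a score of 789.98 (124402122 to 124403606) closed its chain, 5.07 kb from the nearest 5 Gy peak. The farthest from the other list was the 2451 bp peak on chromosome 15, at 6.74 kb.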

How the data were processed

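RNA immunoprecipitation sequencing of 4 libraries gave 2 deposited peak lists, HuR over IgG at 5 Gy and at 0 Gy. The submitters' processing notes name cutadapt 1.9.1, Bowtie2 2.2.4 and hg19. The peak names begin with MACS, per the files; the caller's version is not given in the sources used here. The deposited values are peak positions and the authors' peak score, whose scale is not stated. Positions are printed with the start counted from 1. No hg19 annotation or genome was used here, so chains are named by position and neither genes, sequences nor fibroblast markers were analysed.

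Peaks with a gap of up to 10 kb were joined across both lists, and an overlap of 1 bp counted as a match, with strand ignored. Python 3.11.15, numpy 2.4.6, pandas 2.3.3 and scipy 1.17.1 were used. The numbers of unmatched peaks were the same with bedtools 2.31.1, and the joining and matching were checked on simulated lists. Named chains were the 10 with the most 0 Gy peaks, the 6 lowest and 6 highest ratios of covered length, the 3 longest rows of unmatched 0 Gy peaks, the 3 largest fusions, and the longest and shortest span (27 chains); strong unmatched peaks were singled out after their values were seen. Members and rules were chosen with earlier results of these data known. Intervals are 95% Wilson intervals of counting error. Depth is unknown, so no read-based interval could be computed.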

Additional observations from a re-analysis of the deposited data

How the results depend on the processing

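With 12 alternative settings, 70 values of 7 results were recomputed. Covered length has no counting interval, and its 9 values are all given. Of the other 61, 20 stayed inside the reported value's counting interval (for numbers of chains, within 1.5 times) and 41 did not. Peak number and covered length were lower at 5 Gy under each setting that gave them. Under chains joined within 5 kb, joined within 20 kb, with 15 or more 0 Gy peaks, 30 or more 0 Gy peaks, 20 or more 5 Gy peaks, 40 or more peaks of both lists, 0 Gy peaks alone joined, scores of at least 100 before joining and scores of at least 150 in the same chains, in this order, the number of dense chains (188) was 92, 354, 407, 56, 92, 122, 174, 45 and 187. The last is fixed by construction apart from 1 chain without such a 0 Gy peak. Covered length at 5 Gy (89.0% of 0 Gy) was 86.5%, 88.5%, 89.5%, 89.2%, 96.6%, 91.1%, 86.9%, 91.5% and 90.1%. Peak number at 5 Gy (72.7% of 0 Gy) was 70.04%, 72.0%, 72.4%, 72.8%, 83.1%, 76.6%, 69.8%, 76.6% and 75.3%, and 88.5% with peaks within 1 kb joined. Unmatched 5 Gy peaks (20.7%) came to 17.0%, 22.8%, 20.2%, 20.7%, 23.8%, 21.98%, 17.2%, 15.7% and 17.7%, and unmatched 0 Gy peaks (37.2%) to 36.1%, 39.8%, 37.2%, 37.8%, 32.8%, 36.4%, 37.1%, 31.2% and 34.7%. With peaks within 1 kb joined, at least 50% of a peak covered, or a peak within 100 bp counted, these 2 shares were 19.4%, 30.4% and 18.3% at 5 Gy and 32.1%, 45.3% and 34.1% at 0 Gy. The number of chains with a ratio of at most 0.667 (21) was 16, 40, 62, 4, 1, 8, 24, 4 and 34, and that with a ratio of at least 1.5 (2) was 1, 5, 6, 0, 6, 3, 3, 1 and 6, so these numbers follow the choice of chains. Beyond the construction of each setting, the cause of these differences was not tested. No paired analysis was possible because there was 1 HuR and 1 IgG library per dose. Since read depth is unknown, numbers of peaks cannot be set against it.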

Other observations

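Some dense chains lay near each other, at gaps above the joining distance of 10 kb. The closest were 2 chains on chromosome 8, the second of which starts at 119016343, with a gap of 10.4 kb. Gaps of 14.8 kb on chromosome 20 (after 33012886), 17.0 kb on chromosome 12 (after 123756676), 17.8 kb on chromosome 11 (after 68287273) and 29.6 kb on chromosome 4 (after 94719) separated further neighbours. Whether such neighbours belong to the same transcript was not tested.

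Across the 188 dense chains, the percentage of unmatched 0 Gy peaks went with the median 0 Gy score of the chain (Pearson r = -0.51, Spearman rho = -0.64), and with the percentage of unmatched 5 Gy peaks (r = 0.41, rho = 0.41). The ratio of covered length varied little with span (r = 0.13, rho = 0.15) or with the number of 0 Gy peaks (r = -0.04, rho = -0.06). All chains share the same 4 libraries and their depth, and these values are descriptions across loci. By chromosome, the covered length of dense chains at 5 Gy was 66.4% (chromosome 18, 3 chains) to 105.3% (chromosome 7, 7 chains) of that at 0 Gy.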
